A study of Mus musculus with 8 samples.

Results

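The LIV-1 group is the branch of the Slc39 (ZIP) transporter family that was followed here through all of its array probes, 15 probes for 9 genes among 56605 probes and 37324 gene names in all. The members were taken by gene name from the array annotation: Slc39a4, Slc39a5, Slc39a6, Slc39a7, Slc39a8, Slc39a10, Slc39a12, Slc39a13 and Slc39a14. Brain, kidney and liver of male mice were measured after 3 weeks in which the drinking water was either distilled water, the control, or held lead acetate. The low dose was 100 mg/L and the high dose 1000 mg/L. Each combination of tissue and dose was hybridised to 1 single-colour Agilent array, 8 arrays in total: control, low and high for brain, the same for kidney, and control and high alone for liver. RNA came from small tissue pieces. Strain, age, and whether an array held 1 animal or a pool were not given in the sources used here, nor was it stated whether the tissues of a dose came from the same animals.

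ZIP proteins carry zinc and related divalent metals into the cytosol, either across the plasma membrane or out of intracellular stores. Most of the LIV-1 members handle zinc. Slc39a8 and Slc39a14 also carry manganese, and in liver Slc39a14 takes up iron that is not bound to transferrin. The members are known for separate sites of action, such as gut lining for Slc39a4, the endoplasmic reticulum and Golgi for Slc39a7, and brain for Slc39a12.

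Every value called a level below is log2 of the processed signal minus log2 of that array's 75th percentile, so 0 is the 75th percentile of the array. A level compares 1 probe across arrays and was not used to rank genes against each other. Of the 9 genes, 7 had a reported probe (the brightest of the gene on average) well above background on all 8 arrays, and 10 of the 15 probes reached that. No member's probe was saturated. Slc39a4, Slc39a5, Slc39a6, Slc39a12 and Slc39a14 had 1 probe each, Slc39a7 and Slc39a10 had 2, and Slc39a8 and Slc39a13 had 3.

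The share of spots well above background ran from 53.4% to 67.1% per array, and the 75th percentile of processed signal was 919 to 954 in brain, 729 to 782 in kidney and 427 to 435 in liver. All 8 brain, all 8 kidney and all 8 liver check genes were well above background on the arrays of their own tissue. Several arrays nevertheless stood apart from others of their tissue in genes of other cells or regions. The control kidney was high in adrenal genes. The low-dose and high-dose kidneys were high in urinary tract lining genes. The low-dose brain was high in striatal and low in hippocampal genes, and the high-dose brain was low in choroid plexus genes. Spermatid genes were high in brain and kidney at the high dose, and some liver check genes in the high-dose kidney. Some pancreas acinus genes were high in the high-dose liver. In tissue pieces, fewer cells of a type and less RNA per cell cannot be told apart.

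**Figure D1:**
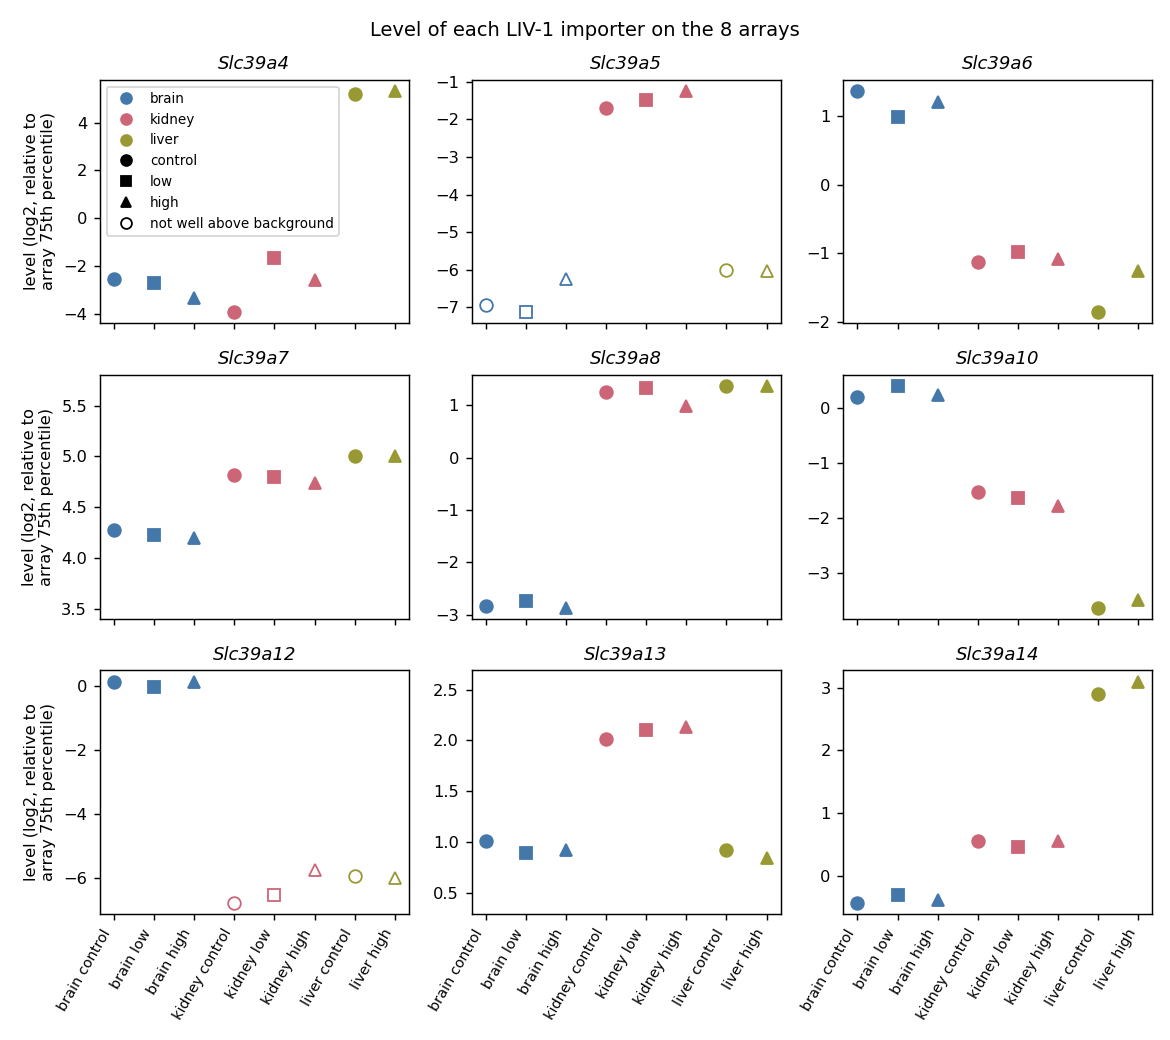
Level of each LIV-1 importer's reported probe on the 8 arrays (y axis, log2 relative to the array's 75th percentile, 1 scale per panel; x axis, tissue and dose). Filled symbols are well above background and open symbols are not; Slc39a4 lies above 5 in liver, Slc39a5 was measured in kidney alone and Slc39a12 in brain alone. The small rise of Slc39a7 from brain to liver turns under quantile normalization.

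The first comparison asked in which tissue each importer was most abundant. Slc39a4 and Slc39a14 were highest in liver, Slc39a5 and Slc39a13 in kidney, and Slc39a6, Slc39a10 and Slc39a12 in brain, while Slc39a8 was high in both kidney and liver and low in brain. Slc39a7 differed little. Differences between tissues were fitted over all 8 arrays with limma, with tissue and dose as terms, and a gene was called at a Benjamini-Hochberg adjusted p below 0.05 and a difference of at least 1 on the log2 scale. By that rule 6 of the 9 members were called between brain and kidney (47.7% of 24673 genes), 6 of 9 between brain and liver (56.9%) and 5 of 9 between kidney and liver (32.3%). These counts include Slc39a5 and Slc39a12, which were measured in 1 tissue each and entered the fit through it. Over the 7 members well above background on all 8 arrays, in a fit of the 17448 such genes, 4 were called between brain and kidney (38.3% of genes), 5 between brain and liver (49.2%) and 4 between kidney and liver (25.6%). Tissue differences were thus common among all genes. The arrays of a tissue differ in dose, and the number of animals behind each is unknown, so these p-values measure only the spread between arrays.

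Slc39a4 encodes ZIP4, the zinc importer of the gut lining whose loss in people causes acrodermatitis enteropathica. Its probe (A_51_P103222) lies at chr15:76442866-76442925 on the minus strand of mm9, the build of the array annotation, and no mm9 gene models were used here to place probes in exons, introns or UTRs. The control brain read -2.53, the low-dose brain -2.71 and the high-dose brain -3.35. The control kidney read -3.93, the low-dose kidney -1.66 and the high-dose kidney -2.59. The control liver read 5.21 and the high-dose liver 5.34. Both liver arrays were far above every brain and kidney array, and the brain and kidney ranges overlapped. The mean was 5.27 ± 0.09 (SD, n = 2) in liver, -2.73 ± 1.14 (SD, n = 3) in kidney and -2.86 ± 0.43 (SD, n = 3) in brain. Both stood far below liver: kidney minus liver was -8.30 (SE 0.52, limma adjusted p = 1.94e-05) and brain minus liver -8.44 (SE 0.52, limma adjusted p = 8.15e-06). Brain and kidney did not differ beyond their spread (difference -0.14, SE 0.45, limma adjusted p = 0.787), and the sign of that small difference turned when the low-dose or high-dose array of either tissue was left out, to values of 0.10 to 0.32.

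Slc39a14 encodes ZIP14, a liver carrier of zinc, manganese and iron that rises in inflammation. Its probe (A_55_P2013760, chr14:70703394-70703453, minus strand) read 2.90 in the control liver and 3.1 in the high-dose liver. The kidney levels were 0.56, 0.46 and 0.55 in the control, low-dose and high-dose arrays, and the brain levels were -0.44, -0.31 and -0.38. The 3 tissues did not overlap, in the order liver, kidney, brain. Kidney minus liver was -2.48 (SE 0.08, limma adjusted p = 1.2e-06) and brain minus liver -3.38 (SE 0.08, limma adjusted p = 1.15e-07). Brain minus kidney was -0.90 (SE 0.07, limma adjusted p = 3e-05), under the size rule, and the difference passed it at -1.18 with each array scaled to its median.

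Slc39a8 encodes ZIP8, a close relative of ZIP14 that carries zinc, manganese and cadmium. Its reported probe (A_52_P485939, chr3:135551169-135551228, plus strand) read -2.84, -2.74 and -2.86 in the control, low-dose and high-dose brain. It read 1.25, 1.32 and 0.98 in the corresponding kidneys, and 1.36 in both livers. Kidney and liver lay close together and far above brain. Brain minus kidney was -4.0 (SE 0.08, limma adjusted p = 5.82e-08) and brain minus liver -4.22 (SE 0.10, limma adjusted p = 8.31e-08), while kidney and liver differed by -0.23 (SE 0.10, limma adjusted p = 0.0771) and did not pass the test. All 3 Slc39a8 probes gave the order liver, kidney, brain by their means. The second probe (A_66_P103684) read -5.11, -4.76 and -4.23 in brain, the control brain not well above background, against -1.32 to -0.99 in kidney and -0.93 and -0.89 in liver. The third (A_52_P25219) was not well above background in any brain and in 1 liver.

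Slc39a5 encodes ZIP5, which sits at the basolateral side of gut and pancreatic epithelium. Its probe (A_51_P206235, chr10:127834340-127834762, minus strand) was well above background in the 3 kidneys alone, where the control read -1.69, the low dose -1.47 and the high dose -1.24. The brain readings of -7.13 to -6.24 and the liver readings of -6.04 and -6.00 are bounds. Kidney was at least 12.3-fold higher than brain and at least 5.76-fold higher than liver, counted against the dimmest signals well above background on the brain and liver arrays. Between brain and liver, both below background, no order can be read.

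Slc39a13 encodes ZIP13, an intracellular zinc carrier of connective tissue cells whose loss in people causes a form of Ehlers-Danlos syndrome. Its reported probe (A_51_P295701, chr2:90902136-90902195, minus strand) read 2.01, 2.11 and 2.13 in the control, low-dose and high-dose kidney. Brain read 1.01, 0.89 and 0.92, and liver read 0.92 and 0.85. Kidney stood above both other tissues, whose ranges overlapped. Brain minus kidney was -1.14 (SE 0.06, limma adjusted p = 4.94e-06), and kidney was 1.21 higher than liver (SE 0.07, limma adjusted p = 1.74e-05). With the mean of the 3 Slc39a13 probes these came to -0.72 and 0.71 and no longer met the size rule. Brain and liver differed by 0.07 (SE 0.07, limma adjusted p = 0.416), with the sign turned under median scaling (-0.24) and under the mean of the probes (-0.01).

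Slc39a12 encodes ZIP12, a zinc importer of the brain. Its probe (A_66_P118209, chr2:14416223-14416282, plus strand) was well above background in the 3 brains alone, with 0.15 for control, -0.01 for low and 0.14 for high. Kidney readings of -6.77 to -5.75 and liver readings of -6.00 and -5.94 were not well above background. Brain was at least 28.4-fold higher than kidney and at least 17.0-fold higher than liver.

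Slc39a10 and Slc39a6 encode ZIP10 and ZIP6 (LIV-1 itself), plasma membrane zinc importers that can pair with each other. Slc39a10's reported probe (A_51_P223498, chr1:46865343-46865402, minus strand) read 0.20, 0.40 and 0.23 in the control, low-dose and high-dose brain, with kidney levels of -1.52, -1.64 and -1.77 and liver levels of -3.62 and -3.49. The tissues did not overlap, in the order brain, kidney, liver, and the second probe (A_65_P05446) gave the same order. Brain exceeded kidney by 1.92 (SE 0.11, limma adjusted p = 6.03e-06) and liver by 3.80 (SE 0.13, limma adjusted p = 4.65e-07). Kidney exceeded liver by 1.88 (SE 0.13, limma adjusted p = 3.08e-05), a difference that was 0.82 with the normexp background correction, under the size rule. Slc39a6 (A_51_P259214, chr18:24738561-24738620, minus strand) gave brain levels of 1.37, 0.99 and 1.2, kidney levels of -1.13, -0.98 and -1.08, and liver levels of -1.86 and -1.25. Its brain arrays stood above all others. Brain exceeded kidney by 2.24 (SE 0.17, limma adjusted p = 2.05e-05) and liver by 2.77 (SE 0.19, limma adjusted p = 1.53e-05). Kidney and liver differed by 0.52 (SE 0.19, limma adjusted p = 0.0494), under the size rule.

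Slc39a7 encodes ZIP7, which releases zinc from the endoplasmic reticulum and Golgi. Its reported probe (A_51_P174016, chr17:34165279-34165338, minus strand) gave brain levels of 4.28, 4.22 and 4.2, kidney levels of 4.81, 4.80 and 4.74, and 5.0 for both livers. The arrays of a tissue lay close together, and no tissue difference met the size rule. Brain minus kidney was -0.55 (SE 0.04, limma adjusted p = 1.08e-05) and brain minus liver -0.77 (SE 0.04, limma adjusted p = 4.21e-06), but under quantile normalization brain was 0.23 higher than liver and kidney 0.31 higher than liver. With median scaling the brain to liver difference was -1.08. The second probe (A_55_P2740549) gave brain levels of 0.87 to 0.92, kidney levels of 1.52 to 1.65 and liver levels of 1.87 and 1.79, the same order as the reported probe on the main scale.

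**Figure D2:**
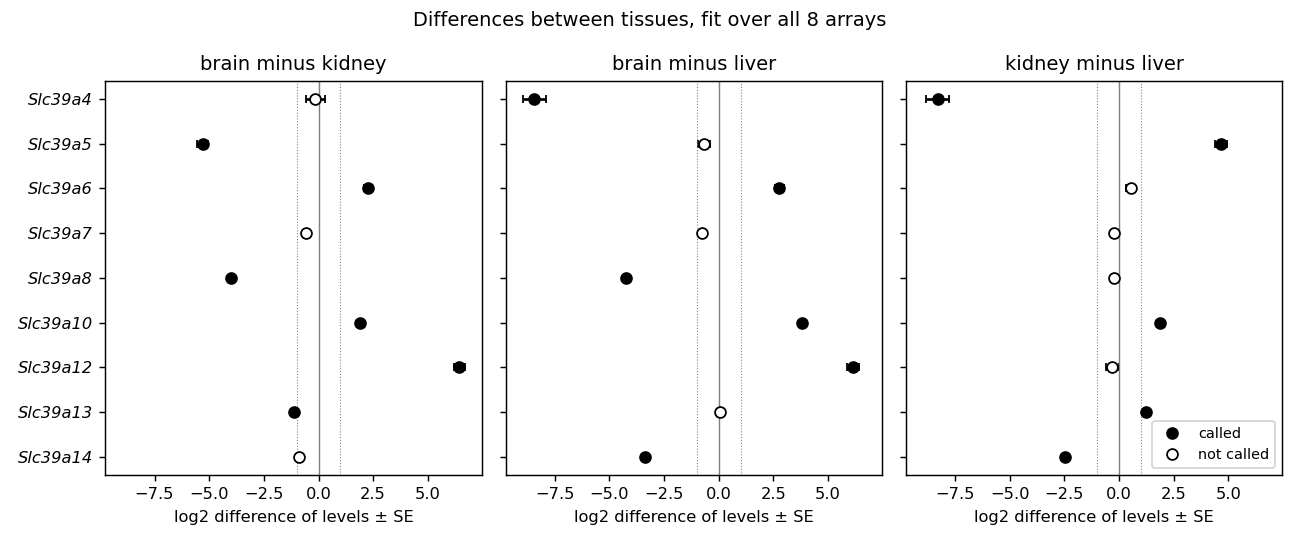
Fitted differences between tissues for the 9 importers (x axis, log2 difference of levels with its limma SE; 1 panel per pair of tissues; dotted lines at -1 and 1). Filled points were called; Slc39a4 is more than 8 lower in brain and kidney than in liver, and Slc39a7, at -0.77 between brain and liver, turns to 0.23 under quantile normalization.

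The scaling of the arrays moves such differences as a whole. The median difference over all 24673 genes was -0.15 for brain minus kidney, -0.31 for brain minus liver and -0.20 for kidney minus liver. With median scaling these medians were -0.42, -0.61 and -0.22, and with quantile normalization -0.17, -0.17 and -0.03. Against those shifts, the called differences of Slc39a4, Slc39a6, Slc39a8, Slc39a10, Slc39a13 and Slc39a14 kept their direction under the scalings tried. Those of Slc39a5 and Slc39a12 did so too, but the scalings are no check there. Both genes entered the fit through the only tissue where they were measured, which set the direction.

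The second comparison asked how lead acetate changed the importers within a tissue. With 1 array per group there was no replicate check and no p-value. A difference was called where both arrays were well above background, it reached 2-fold (1 on the log2 scale), and it exceeded 3 times its array error, the error that the scanner software gives for the 2 signals. Slc39a4 was the only member called by its reported probe, higher in kidney at both doses. No member was called in brain or liver.

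**Figure D3:**
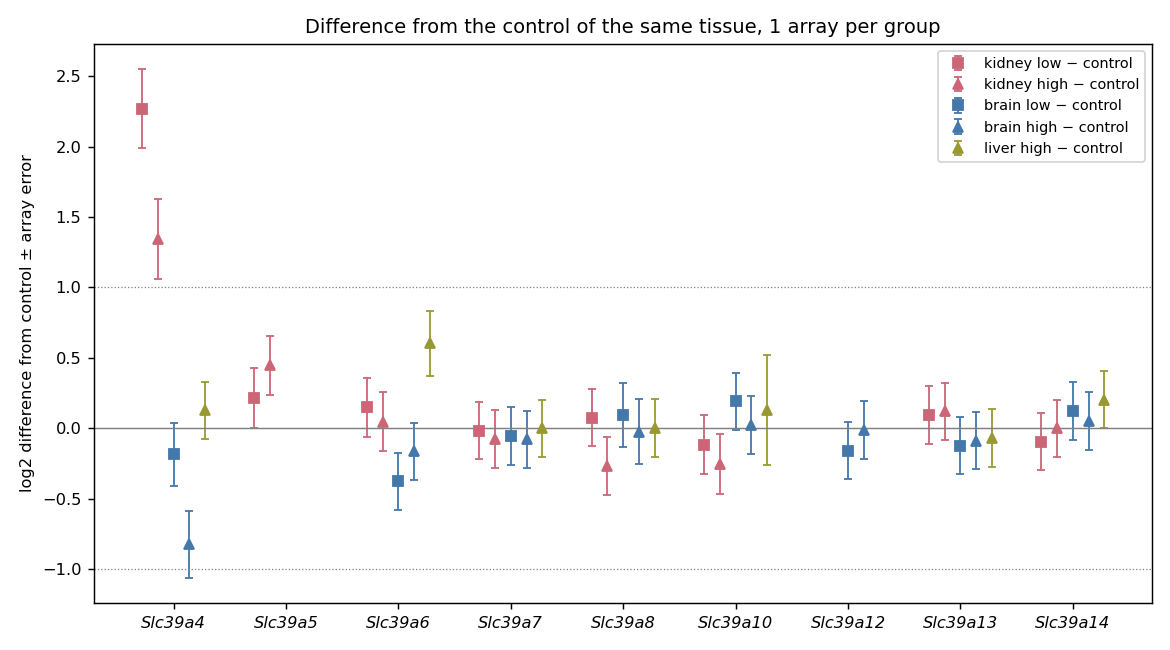
Difference of each importer from the control of its tissue (y axis, log2, bars show the array error; x axis, gene; dotted lines at -1 and 1), for the 5 exposed arrays. Only differences with both arrays well above background are drawn; Slc39a4 in kidney, at 2.27 and 1.34, lies outside the dotted lines and all other points lie inside.

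In the low-dose kidney 8 of the 9 members were measured (Slc39a12 was not) and 1 was called higher, against 0.492% of 20948 genes called and 0.22% called higher. Their median difference was 0.08, against -0.01 for all measured genes. In the high-dose kidney 8 were measured and 1 was called higher, against 1.66% of 21353 genes called and 1.12% called higher, with medians of 0.02 and -0.03. From the kidney levels given above, Slc39a4 was 2.27 higher than control at the low dose (4.82-fold, array error 0.28) and 1.34 higher at the high dose (2.54-fold, array error 0.29). Both exposed kidneys were above the control, and the larger difference was at the lower dose. The high-dose kidney was 0.92 lower than the low-dose kidney, which did not meet the size rule, and no member did in that comparison (1.08% of genes called). The control kidney, at -3.93, was the dimmest of the 8 readings of this probe, with the lowest level well above background on that array at -4.85. With the normexp background correction the 2 differences were 1.29 and 0.69, and the high-dose call was lost. With the filter that also asks for a signal above the array's median neither difference was measured. Both comparisons share the control array, so they are not independent.

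Other markers moved on the same kidney arrays. Of 10 urinary tract lining genes, 6 were measured at the low dose and 5 were called higher, among them Upk3a by 2.47, Sprr1a by 2.49 and Gsdmc3 by 2.85, with a median of 1.80. At the high dose 4 of 6 were higher, with Upk3a at 2.29, Sprr1a at 2.90, Gsdmc3 at 3.29 and a median of 1.66. The uroplakins Upk1b, Upk2 and Upk3b were not measured in both arrays of either comparison. The list's summed level, in units of the array's 75th percentile, was 1.70 on the control kidney array against 3.77 with the low and 4.11 with the high dose. Of 12 adrenal genes, 2 of 5 measured were lower at the low dose (Cyp21a1 by -3.70 and Star by -2.79) and 3 of 7 at the high dose, and the summed level was 6.22 on the control array against 1.61 and 1.59 on the exposed arrays. The kidney tubule injury list had 1 of 9 measured genes higher at the low dose (median 0.09) and 4 of 9 higher at the high dose (median 0.75). Of 8 spermatid genes, 2 of 5 measured were lower at the low dose (median -0.98) and 7 of 7 higher at the high dose (median 2.73). The acute phase list had 1 of 6 lower at the low dose and 3 of 7 higher and 1 lower at the high dose. The fat list had 1 gene called lower at each dose, Cidea at the low and Ucp1 at the high dose. Called or not, 7 of 7 measured fat genes were below control at the low dose (median -0.24). At the high dose it was 7 of 8 (median -0.70). Of 8 liver check genes, none of 6 measured was called at the low dose (median -0.16). At the high dose 3 of 6 were higher, Serpina1a by 3.28, Ahsg by 1.38 and Alb by 1.22, and 1 was lower, Apob by -1.53 (median 0.26), with a summed level of 222 in the control kidney, 197 with the low and 163 with the high dose. All 8 kidney check genes were measured, none was called, and their median differences were 0.01 and -0.01. The part of these cells in the Slc39a4 values was not tested.

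**Figure D4:**
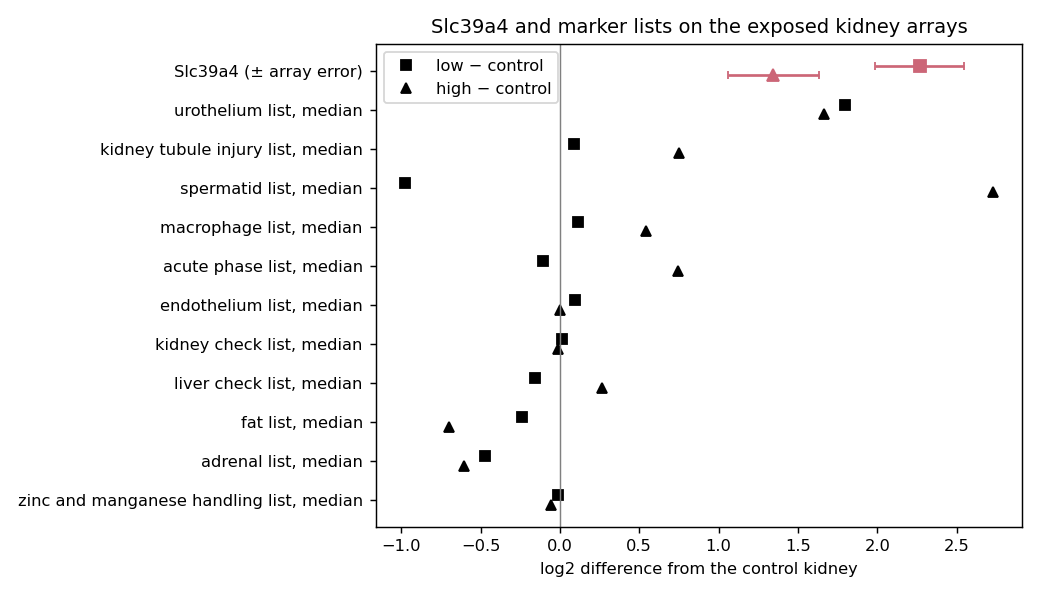
Slc39a4 (with its array error) beside the median difference of each marker list on the same exposed kidney arrays (x axis, log2 difference from the control kidney; squares low dose, triangles high dose). Slc39a4 at 2.27 and 1.34 lies on the same side as the urothelium list at 1.80 and 1.66, and the kidney check genes lie at 0.01 and -0.01.

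Among the 12228 named genes well above background on all 8 arrays, those nearest to Slc39a4 by Euclidean distance over the 5 log2 differences from control were Trem2 (distance 1.35), Slc6a12 (1.67) and Samd3 (1.70). Trem2, a receptor of macrophages and microglia, differed by 1.54 and 1.77 in the low-dose and high-dose kidney, by 0.23 and -0.0015 in the brains and by -0.39 in the liver. In the same order Slc6a12 differed by 0.93, 0.88, -0.77, -0.19 and -0.08, and Samd3 by 1.25, 0.32, -0.28, -0.44 and 0.92. Each was below the 2.27 of Slc39a4 in the low-dose kidney, so nearest does not mean close. The macrophage list as a whole had a median of 0.11 in the low-dose kidney and 0.54 in the high-dose kidney, with none of 9 measured genes called at either dose.

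The other members moved little in kidney. Slc39a5, measured in kidney alone, differed by 0.21 at low and 0.45 at high dose (array error 0.21 for both). Slc39a6 differed by 0.15 and 0.05, Slc39a7 by -0.02 and -0.08, and Slc39a14 by -0.09 and -0.0014. Slc39a8 differed by 0.08 and -0.27 and Slc39a10 by -0.12 and -0.25. None of them reached the size rule.

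Slc39a13 is the member whose probes disagreed in kidney. The reported probe differed from control by 0.09 and 0.12 on the low-dose and high-dose arrays, and a second probe by 0.11 and 0.23. The third probe, annotated to the Ensembl transcript ENSMUST00000133047 rather than to the RefSeq transcript of the other probes, was called lower at both doses. The second probe and the last are shown because they gave opposite signs for the same gene. Both sequences are 60 bases, on the minus strand of chromosome 2 in mm9, and carry no capitals because no part of them is singled out.
A_52_P6505: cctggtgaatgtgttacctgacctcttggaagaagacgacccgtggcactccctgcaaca
A_55_P2718775: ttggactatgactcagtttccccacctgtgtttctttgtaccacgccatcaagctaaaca
The first is annotated to chr2:90903121-90903265, so its 60 bases are spread over a longer stretch of genome, and the last to chr2:90909293-90909352. The third probe read -1.66 in the control kidney, -2.84 in the low-dose kidney and -3.18 in the high-dose kidney. In brain it read -2.82, -2.85 and -2.94, and in liver -2.82 and -3.04. The control kidney alone stood above the other 7 arrays. Its differences from control were -1.18 (array error 0.23) at the low dose and -1.52 (array error 0.23) at the high dose, while A_52_P6505 read -0.43, -0.32 and -0.21 on the same 3 arrays. With the mean of all 3 probes, Slc39a13 differed by -0.33 and -0.39 from the control kidney and was not called. The control kidney is also the array with the high adrenal genes given above, and the part of that in this probe's value was not tested.

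**Figure D5:**
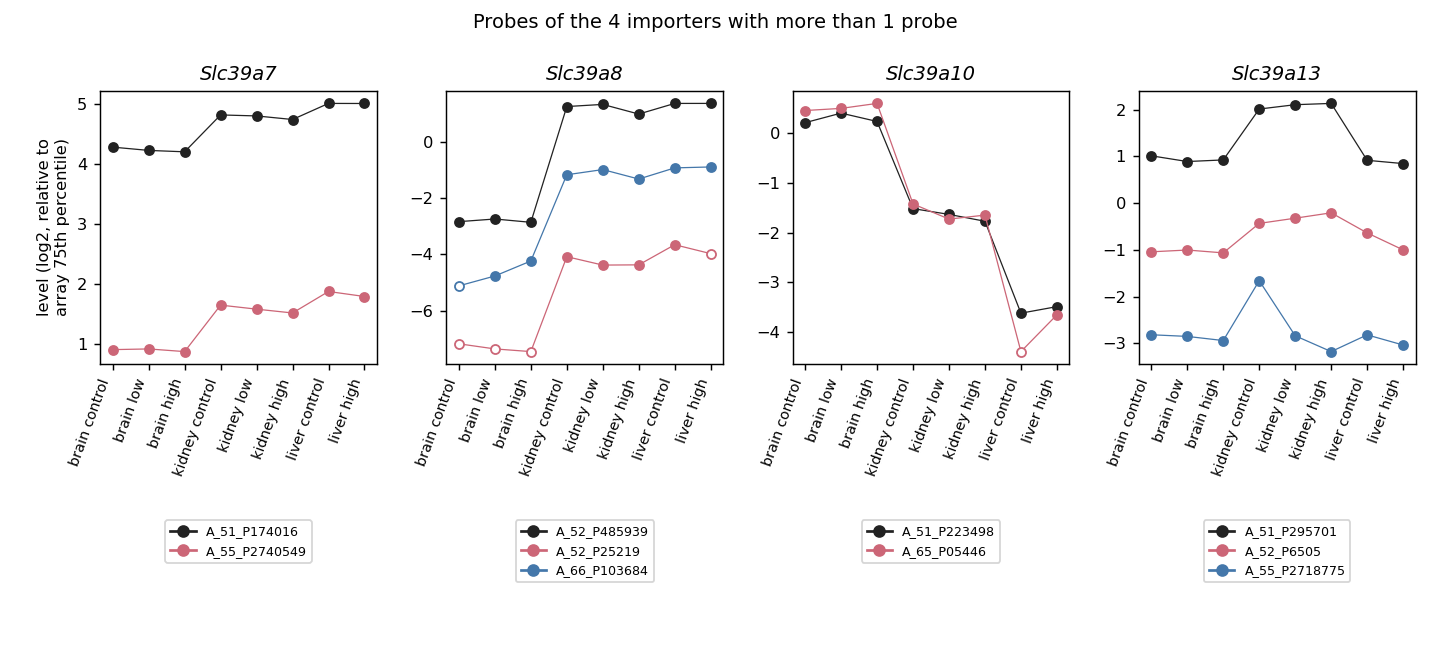
Levels of every probe of the 4 importers with more than 1 probe (y axis, log2 relative to the array's 75th percentile; x axis, tissue and dose; open symbols not well above background; lines join 1 probe and have no other meaning). Heights of different probes are not comparable; the third Slc39a13 probe (A_55_P2718775) is high in the control kidney at -1.66, and the other probes of that gene are not.

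In brain, 8 of 9 members were measured (Slc39a5 was not) and none was called at either dose, against 0.745% of 22690 genes for the low dose and 0.452% of 22795 for the high dose. The median difference of the members was -0.09 in the low-dose brain and -0.05 in the high-dose brain, against -0.0020 and -0.0031 for all measured genes. By reported probes the largest at the high dose was Slc39a4, at -0.82 (array error 0.24), which met a 1.5-fold but not the 2-fold size rule. Slc39a4 differed by -0.18 in the low-dose brain. On that high-dose brain array 10 of 11 measured choroid plexus genes were called lower, with a median of -1.90 and a summed level of 20.1 against 74.1 in the control, and their part in the Slc39a4 value was not tested. Slc39a12, the brain member, differed by -0.16 and -0.01, and the 10 astrocyte genes had medians of -0.01 and 0.09. Slc39a6 had the largest difference at the low dose, -0.38 (array error 0.20), and was -0.16 at the high dose. On the low-dose brain array 11 of 11 striatal genes were called higher, with a median of 1.56 and a summed level of 198 against 65.7 in the control, and 4 of 8 hippocampal genes were called lower, with a median of -1.20 and a summed level of 15.6 against 20.0. Their part in the Slc39a6 value was not tested. By their reported probes Slc39a8, Slc39a10, Slc39a13 and Slc39a14 lay between -0.12 and 0.19. The second Slc39a8 probe (A_66_P103684) was not well above background in the control brain. It was at least 1.63-fold higher in the high-dose brain and at least 1.13-fold higher in the low-dose brain. No member was called between the high-dose and low-dose brains (1.05% of genes called).

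In liver, 7 of 9 members were measured (neither Slc39a5 nor Slc39a12 was) and none was called, against 0.804% of 19166 genes. Their median difference was 0.13, against -0.02 for all measured genes. By reported probes the largest was Slc39a6, at 0.60 (1.52-fold, array error 0.23), and the next was Slc39a14 at 0.20 (array error 0.20). The second Slc39a10 probe (A_65_P05446) was at least 1.25-fold higher, its control liver reading not being well above background. Slc39a4, the member with the highest liver level relative to kidney and brain, differed by 0.13 between the livers. Slc39a7 differed by -0.0014 and Slc39a8 by 0.0004. On the high-dose liver array all 8 pancreas acinus genes were well above background, against 5 in the control. Of the 5 measured on both, 1 was called higher, Cela2a by 1.66 (median 0.29). The list's summed level was 37.4 against 41.5 in the control. The part of these cells in the liver values was not tested.

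A single fit over all tissues, with dose as a term beside tissue, gave the dose effects that the tissues share. It was run with limma on the 17448 genes well above background on all 8 arrays, of which 7 are members. None of the 7 was called at the low or the high dose, and 0.0% of all genes were; at an unadjusted p below 0.05 there were 421 genes for the low and 1181 for the high dose, and no member. Slc39a4 had the largest member value, 1.02 at the low dose (SE 0.48, limma adjusted p = 1.0) and 0.22 at the high dose (SE 0.41, limma adjusted p = 0.900). The high-dose value was -0.42 without the control kidney, -0.05 without the high-dose kidney, 0.81 without the control brain and 0.45 without the high-dose brain. The other 6 members lay between -0.10 and 0.16 at both doses.

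Of the other zinc and manganese handling genes, Mt1, Mt2 and Slc39a2 were called in a comparison with control. The list held 26 genes: Slc39 genes outside the LIV-1 group, the Slc30 zinc exporters, metallothioneins, the zinc sensor Mtf1 and manganese and metal carriers such as Slc11a2, Tfrc, Atp13a2 and Trpm7. In liver 21 were measured and 2 were called higher, against 0.804% of all genes called. These were Mt1, by 3.11, and Mt2, by 2.99, the cytosolic zinc-binding proteins. In the high-dose kidney 21 were measured and the same pair was called higher, Mt1 by 1.27 and Mt2 by 1.2 (1.66% of all genes called). In the low-dose kidney Mt1 and Mt2 differed by 0.28 and 0.24. There 1 of 21 was called lower, the zinc importer Slc39a2 by -1.27 (0.492% of all genes called). In the high-dose kidney Slc39a2 differed by -0.97, short of the size rule. Its level was -2.34 in the control kidney against -3.61 and -3.31 in the low-dose and high-dose kidneys. Both differences share that control array, the one with the high adrenal genes, and the part of that was not tested. In brain 23 were measured and none was called at either dose (0.745% of all genes at the low and 0.452% at the high dose). None of the 7 LIV-1 members measured in liver was called on the same high-dose array, where few genes were called at all (0.804%). In kidney the Slc39a4 difference was larger at the low dose, while those of Mt1 and Mt2 were larger at the high dose.

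Metallothionein promoters are known for metal response elements, the sites of the zinc-sensing factor MTF-1, whose core was searched here as TGCACNC or TGCGCNC on both strands, with no overlap between the spellings. RefSeq promoters (GRCm38.p6, 250 bases before to 50 after a start) were searched for 6 of the 9 members, 9 promoters in all. Of those, 1 of 2 for Slc39a5, 1 of 2 for Slc39a8 and the 1 of Slc39a13 held a single match. Those of Slc39a7, Slc39a10 and Slc39a12 held none. The promoters of Slc39a4, Slc39a6 and Slc39a14 were not searched, so there is no result for Slc39a4, the member called in kidney. Of all 32851 RefSeq promoters, 25.7% held at least 1 match and 1.97% held 3 or more. The Mt1 promoter and the Slc39a8 promoter with a match are shown as examples, with matches in capitals. A match on the other strand reads GNGTGCA or GNGCGCA. Whether matches bear on the dose differences was not tested.
Mt1 promoter, chr8:94178839-94179138, plus strand: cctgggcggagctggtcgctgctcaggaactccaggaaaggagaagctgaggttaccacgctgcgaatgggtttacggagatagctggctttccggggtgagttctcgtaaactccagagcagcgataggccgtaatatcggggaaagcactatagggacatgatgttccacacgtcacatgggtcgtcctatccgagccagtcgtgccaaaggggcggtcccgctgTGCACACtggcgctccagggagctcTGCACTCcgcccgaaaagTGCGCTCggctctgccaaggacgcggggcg
Slc39a8 promoter, chr3:135825407-135825706, plus strand: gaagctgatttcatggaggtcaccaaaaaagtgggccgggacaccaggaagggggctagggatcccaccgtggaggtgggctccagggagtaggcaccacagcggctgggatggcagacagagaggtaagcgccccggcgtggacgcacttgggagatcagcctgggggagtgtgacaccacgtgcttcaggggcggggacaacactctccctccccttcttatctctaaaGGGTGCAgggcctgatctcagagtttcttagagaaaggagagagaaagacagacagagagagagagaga
The Mt1 window held 3 matches, and the Mt2 window 4. A match in a window describes the letters there and says nothing of whether the factor binds.

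Tissue differences were common in the same list, as they were among all genes. By the limma rule 16 of 23 tested genes were called between brain and kidney (47.7% of all genes). It was 18 of 23 between brain and liver (56.9%) and 7 of 23 between kidney and liver (32.3%). These counts include genes not well above background in every tissue: Slc30a3 outside brain, Slc30a2 in liver and Slc30a10 in kidney. They entered the fit through the tissues where they were brighter. Slc30a3 was called between kidney and liver at -1.14, where all its readings are limited by background and no order can be read. Slc30a10, the manganese exporter, was lower in brain than in liver (brain minus liver -3.14, limma adjusted p = 2.79e-06), in the direction of Slc39a14 and Slc39a8. Against kidney it went the other way from both importers, with brain minus kidney at 4.14. Its kidney readings of -6.73 to -6.49 were not well above background. Slc30a2, a zinc exporter of vesicles, was lower in brain than in kidney (brain minus kidney -4.77, limma adjusted p = 1.41e-07), in the direction of Slc39a5.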

How the data were processed

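Total RNA of each tissue (50 ng input) was labelled with Cy3 and hybridised to a single-colour Agilent mouse array, per the labels' protocols. The scanner files that the authors deposited hold an intensity per spot, background-corrected in the processed signal column per the file headers. The submitters' processing notes name Agilent Feature Extraction 12.0.3.1. A table of values, also deposited, holds the same processed intensity divided by each array's 75th percentile over all spots, as a comparison with the scanner files showed, and was used as an alternative.

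From the files, log2 processed signal minus the array's 75th percentile over 59305 non-control spots was computed, outlier-flagged spots were left out and spots of a probe averaged. Gene names were updated through RefSeq accessions (32989 probes matched, 1534 names changed, no member's). Each gene is represented by its brightest probe on average. Tissue and shared dose effects were fitted with limma 3.58.1 (R 4.3.3) with an intensity trend and 3 residual degrees of freedom. Tissue tests kept genes well above background on every array of at least 1 tissue. Called dose differences met the size rule stated with the results. Both procedures were run on simulated data. For the size rule the simulated noise was the array error alone, which holds no difference between animals or tissue pieces. For limma it was normal noise of the fitted spread. Neither run is a check on the dose calls. The precision is limited by 1 array per group.

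All 9 members are named. Genes named beside Slc39a4 are the 3 nearest for a called member. Of the zinc and manganese list, every gene called in a dose comparison is named. Of the marker lists, only some of the called genes are named. The members and lists were chosen with earlier results of these data known. Alternatives were the background correction (normexp, offset 50), scaling, deposited table, mean of probes, filters, size rule, fit terms and leaving out each array. Intensities have no count of molecules behind them.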

Additional observations from a re-analysis of the deposited data

Results flagged for a closer look

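Of the 7 importers measured in all 4 exposed brain and kidney arrays, 5 differed from control in opposite directions in the 2 tissues, with both exposed kidney arrays on one side of their control and both exposed brain arrays on the other. The difference between the tissues was not tested, and each tissue has 1 control array, which its 2 differences share. The same sign pattern, whatever its size, was found in 21.5% of the 19247 genes measured in all 4. Slc39a4 stood out in size: its mean difference from control was 1.81 in kidney and -0.50 in brain, 2.31 apart, and 3 of its 4 differences exceeded their array error. Slc39a6 was 0.10 in kidney and -0.27 in brain, 0.37 apart, with 1 of 4 beyond the array error. Slc39a10 was -0.18 in kidney and 0.11 in brain, a gap of -0.29, with 1 of 4 beyond the array error. The gaps of Slc39a13 (0.21) and Slc39a14 (-0.14) came from differences that were all within their array errors. All these values are of the reported probes. The second Slc39a10 probe had the same sign pattern, but neither other Slc39a13 probe did. The third Slc39a13 probe (A_55_P2718775) was lower in kidney, at -1.18 and -1.52, beyond its array error, and at -0.04 and -0.12 in brain. A_52_P6505 had mixed signs in brain, at 0.04 and -0.02.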

How the results depend on the processing

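No paired analysis was possible because the labels do not tie the arrays of different tissues to an animal; the tissue fits carry dose as a term. The counts of members called between tissues and for the shared dose effect stayed within 1.5 times of the reported counts under every alternative run. Among the dose comparisons, the count for the low-dose kidney was 0 under the stricter filter on dim probes. That for the high-dose kidney was 0 under normexp with 75th percentile scaling, normexp with quantile normalization, and the stricter filter. At a 1.5-fold size, 1 member was called between the high-dose and low-dose kidneys and 1 in the high-dose brain. Some uncalled tissue differences changed sign. Slc39a4 between brain and kidney was 0.32 without the low-dose brain, 0.10 without the high-dose brain, 0.32 without the low-dose kidney and 0.13 without the high-dose kidney, within a range of -0.77 to 0.32 over the arrays left out. Under quantile normalization, and under normexp with quantile normalization, Slc39a5 brain minus liver was 0.0009 and 0.049, Slc39a7 brain minus liver 0.23 and 0.21, Slc39a7 kidney minus liver 0.31 and 0.31, and Slc39a12 kidney minus liver 0.052 and 0.11. Slc39a12 kidney minus liver was also 0.024 without the control kidney, within a range of -0.67 to 0.024 over the arrays left out. Slc39a13 brain minus liver was -0.24 under median scaling and -0.011 with the mean of all probes. The shared high-dose effect of Slc39a4 was -0.42 without the control kidney and -0.05 without the high-dose kidney, within a range of -0.42 to 0.81. The cause of these changes was not tested. Readings of Slc39a5 outside kidney and of Slc39a12 outside brain are limited by background.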
